A study of Mus musculus with 9 samples.

Results

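Bdnf, Ntf3, Ntrk2, Ntrk3, Ngfr, Sort1, Gfra1 and Vgf are 8 genes of neurotrophin signaling, and their transcripts were compared between the brains of young and old mice. The genes were listed by name and taken from a table of raw read counts with 49315 genes. All 8 passed the filter on low counts, which kept 18492 genes. The libraries came from whole brain tissue of wild-type (WT) male C57BL/6J mice with no transgene or treatment, and each library is a separate mouse. The young group held 5 mice of 3 months by the labels, and the old group held 4 mice of 33 months, numbered 1, 3, 4 and 5. Old replicate 2 was not analysed here. Polyadenylated RNA was sequenced, and the libraries held between 14229259 and 21150439 counted reads in the young mice and between 14285654 and 18742861 in the old mice. Markers of the labelled tissue were abundant: the neuronal gene Snap25 reached 1998 CPM (counts scaled to library size) on average, the astrocyte glutamate transporter gene Slc1a2 reached 2307 CPM and the myelin gene Mbp reached 3233 CPM.

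Neurotrophins are secreted proteins that support the survival of neurons and the strength of their synapses. Brain-derived neurotrophic factor (Bdnf) acts through the receptor tyrosine kinase TrkB (Ntrk2), and neurotrophin-3 (Ntf3) acts mainly through TrkC (Ntrk3). The p75 receptor (Ngfr) binds all neurotrophins and, together with sortilin (Sort1), their uncleaved pro-forms. GFRα1 (Gfra1) is the binding receptor for the related survival factor GDNF, and Vgf encodes a secreted granin that neurotrophins induce in neurons. In the adult brain, neurons make full-length TrkB, astrocytes make mostly a truncated TrkB that lacks the kinase, and p75 is best known from cholinergic neurons of the basal forebrain. The table holds 1 count per gene, so truncated and full-length receptors were not separated. In a whole brain library, fewer cells of a type and less RNA per cell cannot be told apart.

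One young library stood apart from the rest of its group. In young replicate 4, the 8 markers of activated microglia summed to 159 CPM, against 91.1, 103, 106 and 106 CPM in young replicates 1, 2, 3 and 5, and 6 markers of reactive astrocytes summed to 637 CPM against 260.5 to 302 CPM. Both sums lay within the range of the old mice. This mouse was kept in the main comparisons. The difference in Ntrk2 without it is given below, while counts of called markers without it are not.

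Between the ages, 1 of the 8 transcripts passed the test. Ntrk2 was 10.1% higher in old brain in CPM, with a 95% interval from 4.25% to 16.2%. It was also called higher in every other count scaling, although its direction turned on the log2(TPM + 1) scale described below. The other 7 did not pass at an adjusted p of 0.05 in the quasi-likelihood test of edgeR, adjusted by Benjamini-Hochberg over all genes kept. The share called was 12.5% of the 8 genes, beside 11.0% of all 18492 genes tested (6.09% higher and 4.89% lower in old). At an unadjusted p of 0.05, 3 of 8 passed (Ntrk2, Ntrk3 and Bdnf), beside 25.5% of all genes. None of the 8 passed when a log2 fold change over 0.58 was also required, which 2.50% of all genes did. In old mice 6 had lower fitted values, and Ntrk2 and Sort1 had higher ones that turned on the log2(TPM + 1) scale, with a median log2 fold change (old over young) of -0.10 for the 8 genes and of -9.2e-05 for all genes kept. DESeq2 also called Ntrk2 alone among the 8, and 11.4% of all genes.

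**Figure D1:**
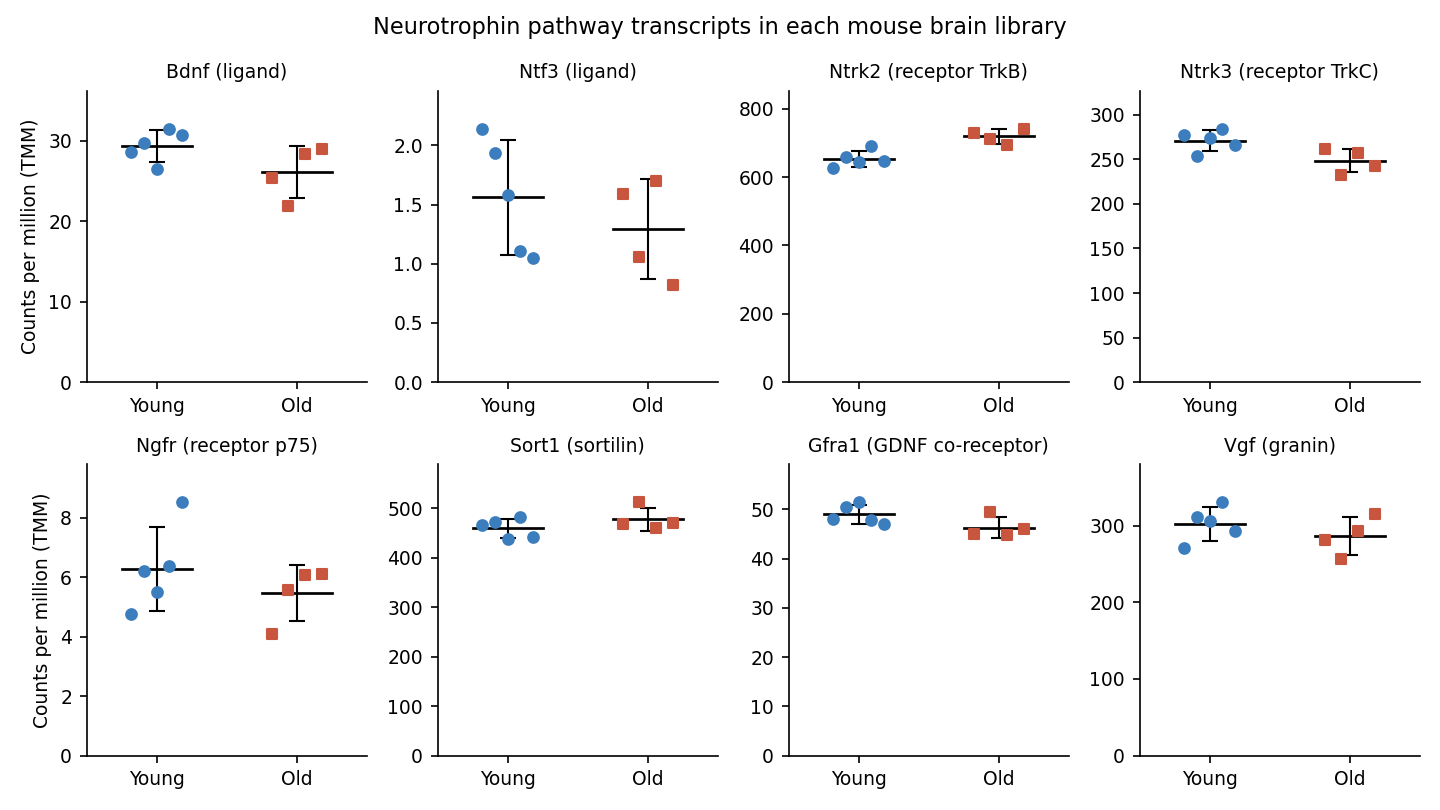
CPM after TMM scaling (linear axes from 0 that do not share a scale) of the 8 transcripts in each library, with 5 young and 4 old mice; points are single mice, and lines with error bars are group means with SD. The ages overlapped for every transcript except Ntrk2, whose old values of 693 to 742 CPM lay above the young values of 628 to 691 CPM, a direction that turned on the log2(TPM + 1) scale.

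Among the ligands, Bdnf (chr2:109674700-109727007, GRCm38, plus strand) was at 28.6, 29.7, 26.5, 31.5 and 30.7 CPM in young replicates 1 to 5, and at 25.3, 21.9, 28.4 and 28.9 CPM in old replicates 1, 3, 4 and 5. The lowest values were old, but the highest old mouse exceeded the lower young mice. The means were 29.4 ± 1.98 (SD, n = 5) and 26.2 ± 3.23 CPM (SD, n = 4), a log2 fold change of -0.17 (SE 0.075, 95% interval -0.33 to -0.0082, edgeR adjusted p = 0.17). When 1 mouse was left out it ranged from -0.22 to -0.098, the latter without old replicate 3. Reads of Bdnf were counted over exons that overlap Gm45346 on the other strand, and whether these libraries were counted by strand is not given in the sources used here. Ntf3 (chr6:126101412-126166910, minus strand) was the rarest of the 8 transcripts, with 14 to 41 reads in a library. Its young values were 2.14, 1.94, 1.58, 1.11 and 1.05 CPM and its old values 1.59, 1.06, 1.70 and 0.822 CPM. Young replicates 1 and 2 lay above every old mouse and old replicate 5 below every young mouse, and the others overlapped. The interval of the log2 fold change ran from -0.82 to 0.31 (fitted value -0.26, SE 0.27, edgeR adjusted p = 0.59). When 1 mouse was left out, the fitted value ranged from -0.42 to -0.093.

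Bdnf is controlled from several start sites, and the windows around them were searched, with those of the other 7 genes and of 22 activity-regulated genes described below, for the cyclic AMP response element, TGACGTCA, and for its core letters TGACG or CGTCA, on both strands. This is the letter sequence bound by CREB, a factor known to control Bdnf and early genes in active neurons. Each window ran from 250 bases before to 50 bases after a start site in RefSeq (GRCm38.p6), and a full element also counts as a match to the core. The core was found in 20.8% of 32851 windows, and 23.0% of 27025 genes held it in any window. Of the 8 neurotrophin genes 5 had windows, and 1 of them (Bdnf, in 1 of its 7 windows) held the core. Of the activity-regulated genes 16 had windows and 12 of these held it. Stretches of 80 bases are shown for the ligand gene Bdnf and its receptor gene Ntrk2, and for Fos and Dusp1, early genes that were lower in old brain, with the core or the full element in capitals.
Bdnf, chr2:109692356-109692435, plus strand: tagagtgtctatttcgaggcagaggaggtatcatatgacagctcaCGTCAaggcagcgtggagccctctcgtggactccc
Ntrk2, chr13:58806489-58806568, plus strand: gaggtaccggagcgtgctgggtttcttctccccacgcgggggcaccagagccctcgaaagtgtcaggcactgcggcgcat
Fos, chr12:85473750-85473829, plus strand: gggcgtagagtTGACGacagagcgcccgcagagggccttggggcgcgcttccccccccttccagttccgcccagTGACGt
Dusp1, chr17:26508593-26508672, minus strand: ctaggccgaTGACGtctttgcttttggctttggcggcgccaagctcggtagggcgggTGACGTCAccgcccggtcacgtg

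Counted from the start site, the match in Bdnf began at position -35, those in Fos at -129 and -66, and those in Dusp1 at -191 and, for the full element, at -143. Ntrk2 held no match in its window. Dusp1 held the full element, which occurred in 1.79% of all windows. A match is a description of letters in the window, and the data do not show binding.

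Among the Trk receptors, Ntrk2 (chr13:58806569-59133970, plus strand) was at 628, 658, 644, 691 and 646 CPM in young replicates 1 to 5 and at 730, 712, 693 and 742 CPM in old replicates 1, 3, 4 and 5. Each old mouse lay above each young mouse, by a narrow margin between old replicate 4 and young replicate 4. The means were 653 ± 23.7 (SD, n = 5) and 719 ± 21.3 CPM (SD, n = 4), a log2 fold change of 0.14 (SE 0.037, edgeR adjusted p = 0.022, DESeq2 adjusted p = 0.0049). No other of the 8 transcripts separated the ages, beside 12.6% of all genes that did. Genes called with age had a median absolute log2 fold change of 0.28, so the difference in Ntrk2 was small among them. The call was lost without young replicate 1 (0.13, adjusted p = 0.057), young replicate 3 (0.13, adjusted p = 0.056), young replicate 5 (0.14, adjusted p = 0.051) and old replicate 5 (0.12, adjusted p = 0.075). A fit with a block for the replicate numbers also ended the call (0.14, edgeR adjusted p = 0.053). Without young replicate 4, the library that stood apart, the difference was 0.16 (adjusted p = 0.0097).

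The direction of Ntrk2 depended on the scale. On log2(TPM + 1), where TPM is the deposited level per length, the median of all genes was shifted by -0.14 between old and young, and Ntrk2 had a difference of -0.026 (limma adjusted p = 0.94). Relative to that median its difference was 0.12, and after each library was centred on its own median it was 0.11 (limma adjusted p = 0.076). The small RNA gene Gm23935 alone held from 8.68% to 39.5% of the TPM of a library but only from 0.149% to 1.09% of its counts, so the TPM of every other gene in a library depends on the share of this one.

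Ntrk3 (chr7:78175959-78738012, minus strand) was at 278, 253, 274, 285 and 266 CPM in young replicates 1 to 5 and at 261, 233, 257 and 243 CPM in old replicates 1, 3, 4 and 5. Old replicates 3 and 5 lay below every young mouse, and the other two overlapped the young range. The means were 271 ± 12 (SD, n = 5) and 249 ± 13.2 CPM (SD, n = 4), a log2 fold change of -0.12 (SE 0.043, 95% interval -0.21 to -0.034, edgeR adjusted p = 0.071). The test was passed without young replicate 2 (-0.14, adjusted p = 0.037) and without old replicate 1 (-0.15, adjusted p = 0.049). It was also passed with a block for the replicate numbers (-0.15, edgeR adjusted p = 0.027) and without a filter on low counts (-0.13, edgeR adjusted p = 0.017). Cerebellar granule neurons are a site of TrkC, and 8 markers of cerebellar granule and Purkinje cells summed to 1301, 975, 1298, 1158 and 1250 CPM in young replicates 1 to 5 and 1087, 663, 1108 and 794 CPM in old replicates 1, 3, 4 and 5, and the mouse with the lowest Ntrk3 in each group also had the lowest cerebellar sum. Young replicates 1, 3 and 5 had the same order in both, while young replicate 4 had the highest Ntrk3 and a cerebellar sum below theirs, and old replicates 1 and 4 exchanged places. The most abundant of these markers was Zic1, at 214 CPM, none was at 0 in all libraries, and all 8 had negative fitted values. None of the 8 was called by edgeR, with 2 at an unadjusted p under 0.05 and 2 called by DESeq2. Their part in the result for Ntrk3 was not tested.

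The number of Ntrk2 reads per Ntrk3 read was 2.26, 2.60, 2.35, 2.43 and 2.43 in young replicates 1 to 5 and 2.79, 3.05, 2.69 and 3.06 in old replicates 1, 3, 4 and 5. The ages did not overlap in this ratio, with means of 2.41 ± 0.12 (SD, n = 5) and 2.90 ± 0.19 (SD, n = 4). A ratio within a library does not depend on the scaling of libraries. It is 1 of 3 ratios that were computed after the values were seen, and none was tested. Ntrk2 reads per Bdnf read ran from 21.05 to 24.3 in young and from 24.4 to 32.4 in old mice, nearly touching, and Ntrk2 reads per Ngfr read overlapped, at 75.8 to 132 in young and 114 to 178 in old mice.

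**Figure D2:**
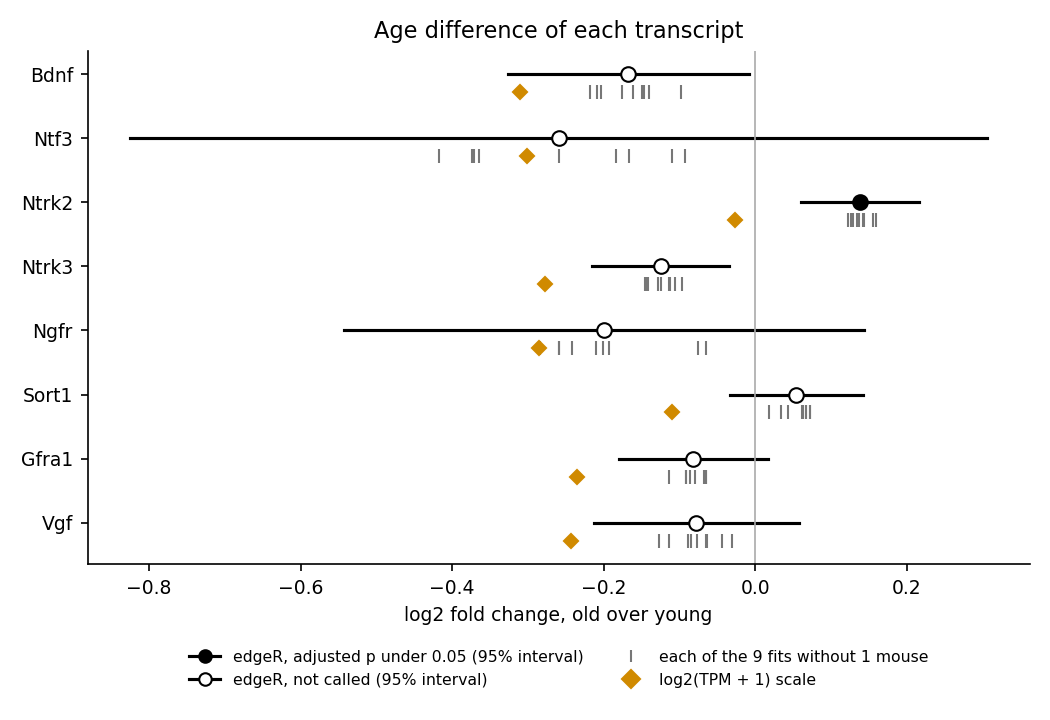
Log2 fold change (old over young) of each transcript from edgeR with its 95% interval; the filled circle passed an adjusted p of 0.05, ticks are the 9 fits without 1 mouse and diamonds are the log2(TPM + 1) scale. Ntrk2 and Sort1 lay above 0 in all edgeR fits and below 0 on the log2(TPM + 1) scale, at -0.026 and -0.11.

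Ngfr (chr11:95568818-95587735, minus strand), the p75 receptor, was at 4.76, 6.20, 5.50, 6.38 and 8.52 CPM in young replicates 1 to 5 and at 4.09, 5.57, 6.07 and 6.10 CPM in old replicates 1, 3, 4 and 5. The highest value was young and the lowest old, and the rest overlapped. The log2 fold change was -0.20 (SE 0.16, 95% interval -0.54 to 0.14, edgeR adjusted p = 0.48), from means of 6.27 ± 1.41 (SD, n = 5) and 5.46 ± 0.95 CPM (SD, n = 4). It was -0.065 without young replicate 5 and -0.075 without old replicate 1. Cholinergic neurons are a known source of p75, and the 8 markers fixed for them summed to 38.8, 42.4, 54.4, 37.1 and 52.9 CPM in the young mice and to 24.4, 32.7, 42.5 and 38.0 CPM in the old mice. Old replicate 1 was lowest in both the cholinergic sum and Ngfr. Young replicate 3 had the highest sum but less Ngfr than young replicates 2, 4 and 5. Young replicate 4 had the lowest young sum but more Ngfr than young replicates 1, 2 and 3. None of these 8 markers was called by edgeR or DESeq2, with 2 at an unadjusted p under 0.05 in edgeR, and all 8 had negative fitted values (median -0.40). The choline transporter gene Slc5a7 was the most abundant, at 13.9 CPM. No marker was at 0 in all libraries, and their part in the values of Ngfr was not tested.

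Sort1 (chr3:108284082-108361511, plus strand), the sorting receptor that binds pro-neurotrophins beside p75, was at 466, 471, 438, 482 and 441 CPM in young replicates 1 to 5 and at 469, 512, 459 and 469 CPM in old replicates 1, 3, 4 and 5. Only old replicate 3 exceeded the young range. The log2 fold change was 0.05 (SE 0.041, 95% interval -0.033 to 0.14, edgeR adjusted p = 0.45), and it was -0.11 on the log2(TPM + 1) scale. Without old replicate 3 it was 0.018. Exons of Sort1 overlap Gm12523 on the other strand.

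Gfra1 (chr19:58235604-58455909, minus strand), the receptor for GDNF, was at 48.0, 50.5, 51.5, 47.8 and 47.1 CPM in young replicates 1 to 5 and at 45.0, 49.4, 44.7 and 46.1 CPM in old replicates 1, 3, 4 and 5. All old mice but replicate 3 lay below every young mouse, and replicate 3 lay inside the young range. The log2 fold change was -0.08 (SE 0.047, 95% interval -0.18 to 0.017, edgeR adjusted p = 0.29). Gfra1 overlaps Gm16277 on the other strand. Vgf (chr5:137026392-137033351, plus strand), the neurotrophin-induced granin, was at 270.3, 311, 306, 331 and 293 CPM in the young mice and at 281, 257, 293 and 315 CPM in the old mice. The groups overlapped over most of their range. The log2 fold change was -0.08 (SE 0.063, 95% interval -0.21 to 0.057, edgeR adjusted p = 0.48), and it ranged from -0.13 to -0.031 when 1 mouse was left out.

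**Figure D3:**
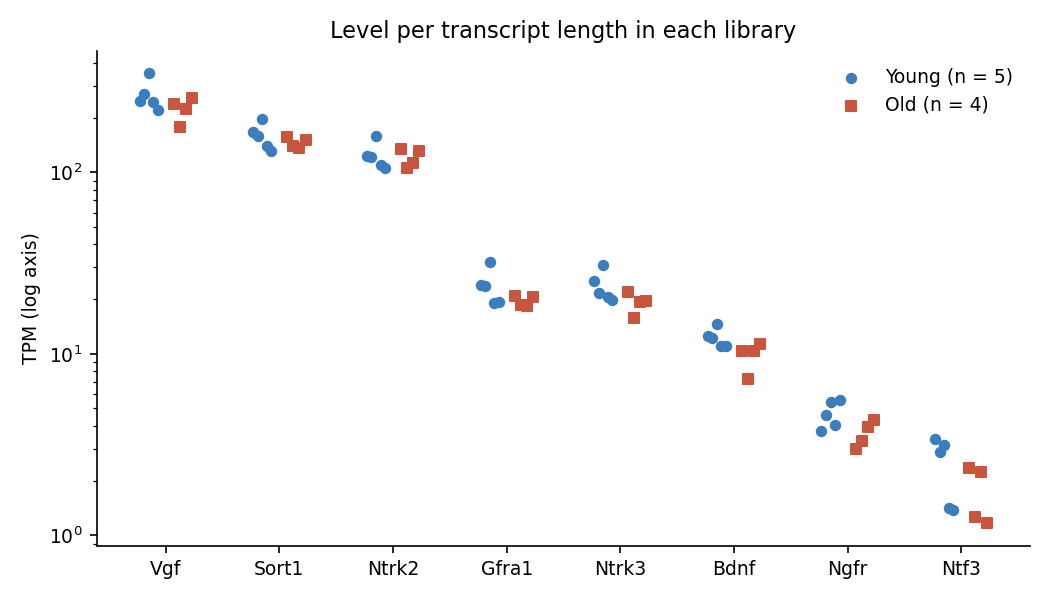
Deposited TPM (log axis) of the 8 transcripts in each library, ordered by their mean over the 9 mice, with points for single mice. The levels ran from 247 TPM for Vgf to 2.14 TPM for Ntf3, and only Gfra1 and Ntrk3 exchanged places between libraries.

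Levels of different genes were compared per length, in TPM over all 9 mice. Vgf was the most abundant at 247 ± 47.0 (SD, n = 9), followed by Sort1 at 153 ± 20.5 and Ntrk2 at 122 ± 17.2 TPM. Gfra1, at 21.8 ± 4.35 TPM, and Ntrk3, at 21.6 ± 4.28 TPM, did not differ beyond their spread, with Gfra1 above Ntrk3 in 4 of 9 libraries. Bdnf reached 11.2 ± 1.97 TPM, Ngfr 4.22 ± 0.87 TPM and Ntf3 2.14 ± 0.87 TPM. Every other pair of neighbours kept its order in 9 of 9 libraries. Both ligands were thus listed at lower levels than their Trk receptors in every mouse. The gene lengths implied by the deposited values equalled the exon union of the GENCODE M21 annotation within 1% for 7 of the 8 genes. For Ntrk2 the implied length was 0.716 of that union, so its TPM is higher than M21 lengths would give.

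Astrocytes are a main source of truncated TrkB, and their markers were compared with Ntrk2. The 10 astrocyte markers summed to 5190 ± 158 CPM (SD, n = 5) in young and 5185 ± 132 CPM (SD, n = 4) in old mice. None of the 10 was called by edgeR, with 3 at an unadjusted p under 0.05 and 2 called by DESeq2. The sums were 5131, 4990, 5205, 5426 and 5199 CPM in young replicates 1 to 5 and 5192, 5062, 5366 and 5121 CPM in old replicates 1, 3, 4 and 5. The ages overlapped over most of this range, and old replicate 4 and young replicate 4, with the highest sum of each age, had nearly equal Ntrk2, at 693 and 691 CPM. Slc1a2 was the most abundant of these markers, and none was at 0. Reactive astrocyte markers did move with age. Vim (0.95), Cd44 (0.60) and Osmr (1.33), that is 3 of 6, rose on the log2 scale at an edgeR adjusted p under 0.05, beside 11.0% of all genes called. All 6 had positive fitted values and an unadjusted p under 0.05 in edgeR, beside 25.5% of all genes. DESeq2 called all 6, beside 11.4% of all genes. The 6 summed to 260.5, 272, 302, 637 and 291 CPM in young replicates 1 to 5 and to 605, 761, 865 and 787 CPM in old replicates 1, 3, 4 and 5, with Gfap, an astrocyte filament gene, the most abundant at 400.5 CPM and none at 0. Their part in the result for Ntrk2 was not tested.

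**Figure D4:**
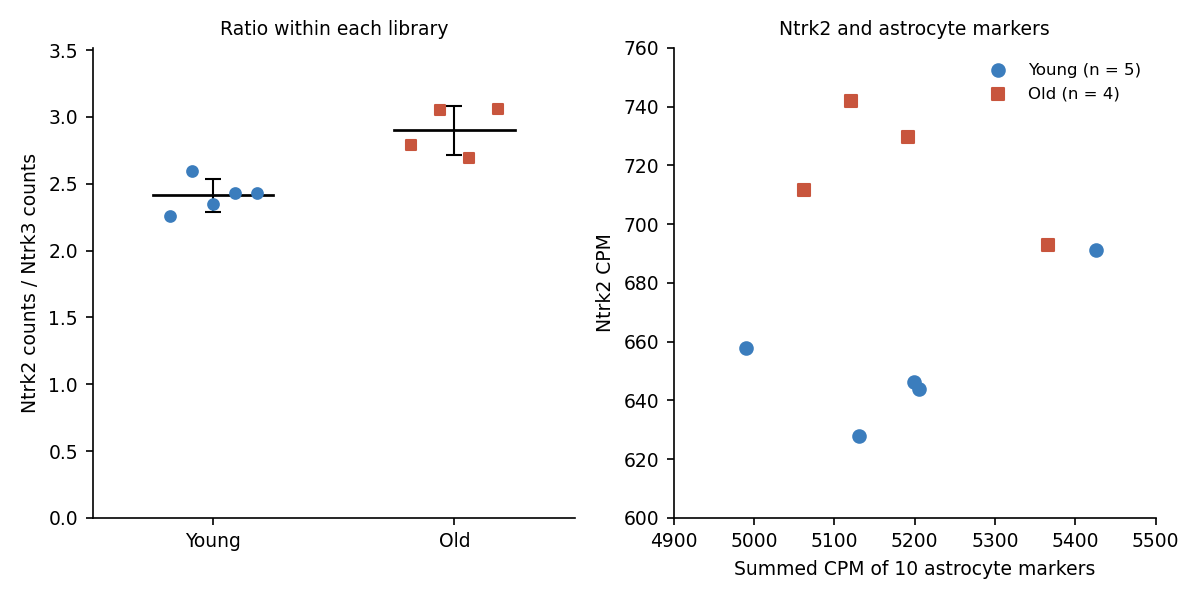
Left, Ntrk2 reads per Ntrk3 read in each library, with group means and SD (axis from 0); right, Ntrk2 CPM against the summed CPM of 10 astrocyte markers (neither axis starts at 0), with points for single mice. The ratios of the ages did not overlap, at 2.41 ± 0.12 in young and 2.90 ± 0.19 in old, while the astrocyte sums overlapped; the direction of Ntrk2 alone turned on the log2(TPM + 1) scale.

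The genes whose profiles were most like that of Ntrk2 over the 9 libraries were found among 14502 other genes by the root mean square difference of log2 CPM, each gene centred on its own mean. Rab11fip3, which encodes an effector of the recycling endosome GTPase Rab11, was nearest at 0.023, followed by the zinc finger gene Zfp651 at 0.029 and the chromatin remodeler gene Chd2 at 0.031. The profile of Ntrk2 itself had a root mean square of 0.081, and the median difference over all genes was 0.14.

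Around the 8 genes, 7 lists of pathway genes were described by their counts. They held 151 gene symbols, of which 142 were kept and 27 were called (10 higher and 17 lower in old), that is 19.0% beside 11.0% of all genes. The median log2 fold change over the 142 genes was 0.0013. Of the 27 calls, 13 held in all 9 fits that left out 1 mouse, and the count was 16 without old replicate 5. On the log2(TPM + 1) scale 5 of the 142 genes were called, beside 3.21% of all genes. On that scale the median of all genes was -0.14, and 3 of the 27 genes (Furin, Mef2a and Arnt2) turned direction. After each library was centred on its own median, 24 of the 142 were called, beside 9.46% of all genes. Sorl1, Furin, Camk4, Mef2a, Arnt2 and Dusp1 overlap genes on the other strand, so their counts are uncertain in the way given for Bdnf.

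**Figure D5:**
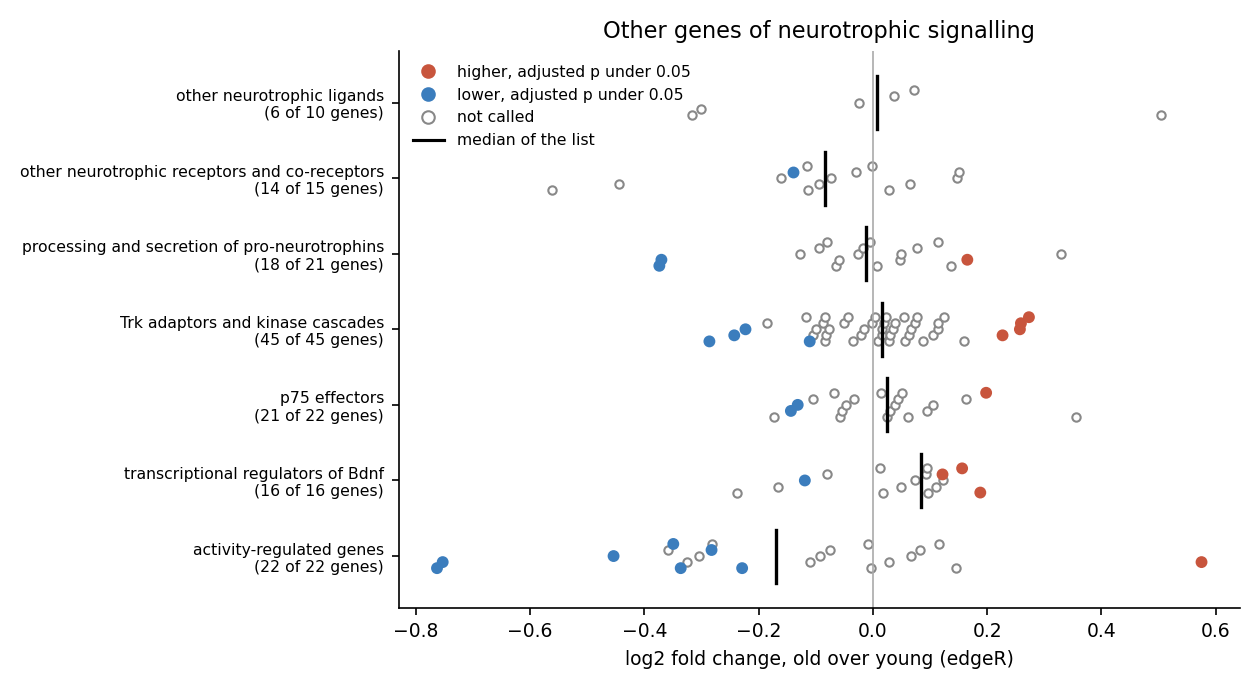
Log2 fold change (old over young, edgeR) of each kept gene in the 7 pathway lists, with a point per gene, filled where the adjusted p was under 0.05 (red higher, blue lower), and a black bar at each list's median. The activity-regulated genes had the lowest median, at -0.17, with 7 of 22 lower and 1 higher in old brain.

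Of 10 symbols of other neurotrophic ligands, 6 were kept and none was called by edgeR or DESeq2, with 1 at an unadjusted p under 0.05 in edgeR. Gdnf (0.04), Nrtn (-0.30) and Artn (0.07), which encode ligands of the GDNF family, and Cdnf (-0.32) and Manf (-0.02), which encode factors of the endoplasmic reticulum, had adjusted p from 0.29 to 0.95. Ntf5, which encodes the neurotrophin NT-4/5, had 1 to 9 reads in a library and did not pass the filter, like Pspn and Cntf. Ntf4, a symbol also used for NT-4/5, matched no symbol in the table.

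Of 15 other receptors and co-receptors, 14 were kept and 1 was called (7.14% beside 11.0% of all genes). Sorl1, a sorting receptor related to sortilin, fell by 0.14 on the log2 scale (SE 0.042, edgeR adjusted p = 0.039), from 496 ± 21.6 (SD, n = 5) to 450.2 ± 22.1 CPM (SD, n = 4). This call held in 2 of the 9 fits without 1 mouse. Ret, the kinase that signals for Gfra1, differed by -0.44 on the log2 scale (adjusted p = 0.15). Values for the other receptors described here ran from -0.16 for the sortilin relative Sorcs3 to 0.15 for Cntfr and Lifr, receptors of the ciliary neurotrophic factor family. Between them lay Gfra2 (-0.09), Gfra4 (-0.11), Il6st (0.06), Sorcs1 (0.03), Sorcs2 (-0.03), Lingo1 (-0.11), Rtn4r (-0.0012) and Ncam1 (-0.07). Gfra3 had at most 1 read in a library.

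Genes of pro-neurotrophin processing and secretion were mostly not called, with 1 higher and 2 lower of 18 kept (16.7% beside 11.0% of all genes). Furin, a protease that cleaves pro-neurotrophins, was higher by 0.17 on the log2 scale (edgeR adjusted p = 0.040), a difference that became -0.0035 on the log2(TPM + 1) scale. The related protease gene Pcsk5 fell by 0.37 (adjusted p = 0.032) and Chga, a granin of secretory granules like Vgf, fell by 0.37 (adjusted p = 0.026). The calls for Furin, Pcsk5 and Chga held in 3, 5 and 4 of the 9 fits without 1 mouse.

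Downstream of the Trk receptors, 45 adaptors and kinases were measured, of which 4 rose and 4 fell by edgeR (17.8% beside 11.0% of all genes), with a list median of 0.017. Mapk3, the ERK1 kinase, rose by 0.26 (adjusted p = 0.00018), from 108 ± 2.97 (SD, n = 5) to 129 ± 1.95 CPM (SD, n = 4). Ptpn11, the phosphatase SHP2 that acts between Trk receptors and Ras, rose by 0.23 (adjusted p = 0.00043), from 229 ± 6.31 to 268 ± 4.49 CPM. The adaptor genes Gab2 (0.27) and Shc1 (0.26) rose as well. Hras fell by 0.24, the kinase gene Akt2 fell by 0.22 and Camk4, a calcium-dependent kinase of the nucleus, fell by 0.29, while Pdpk1, the kinase that activates Akt, fell by 0.11. All but Pdpk1 kept their calls in all 9 fits without 1 mouse, and Pdpk1 lost its call in each of them. The called genes of this list thus lay in both directions.

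Of 21 effectors of p75, 1 rose and 2 fell, that is 14.3% called beside 11.0% of all genes. Irak1, a kinase recruited by the receptor, rose by 0.20 (edgeR adjusted p = 0.0073). The Jun kinases Mapk9 and Mapk8 fell by 0.14 (adjusted p = 0.0087) and by 0.13 (adjusted p = 0.029), and the call for Mapk8 held in 4 of the 9 fits without 1 mouse. Of 16 transcriptional regulators of Bdnf, 3 rose and 1 fell (25% beside 11.0% of all genes). Crebbp, the coactivator CBP, rose by 0.19 (adjusted p = 0.0043) and held in all 9 such fits. Mef2a (0.16, adjusted p = 0.023) and Arnt2 (0.12, adjusted p = 0.046) were called higher, with differences of -0.0085 and -0.04 on the log2(TPM + 1) scale, and their calls held in 5 and 1 of the 9 fits without 1 mouse. The deacetylase gene Hdac2 fell by 0.12, just under the threshold (adjusted p = 0.050), and lost its call in all 9 fits without 1 mouse.

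Activity-regulated genes are transcribed quickly when neurons fire or when TrkB is activated, and Bdnf itself belongs to this class. Of the 22 listed, 7 were lower and 1 higher in old brain by edgeR (36.4% beside 11.0% of all genes), with a median log2 fold change of -0.17. On the log2(TPM + 1) scale 3 were lower and 0 higher, beside 3.21% of all genes called. With each library centred on its own median on that scale, 7 were lower and 0 higher, beside 9.46% of all genes called. By DESeq2 9 were lower and 1 higher, beside 11.4% of all genes called. Arc, which encodes a protein of active synapses, was at 207, 221, 202, 193 and 185 CPM in young replicates 1 to 5 and at 154, 153, 135 and 148 CPM in old replicates 1, 3, 4 and 5. The ages did not overlap, and Arc fell by 0.45 (SE 0.052, adjusted p = 4.8e-05). The transcription factor gene Egr2 fell by 0.75 (adjusted p = 0.00087), the kinase gene Sik1 fell by 0.35 (adjusted p = 0.010) and the transcription factor gene Egr1 fell by 0.23 (adjusted p = 0.024). Inhba, an activin subunit, rose by 0.58 (adjusted p = 0.023). Fos, a transcription factor gene, was at 49.5, 61.1, 59.3, 38.5 and 45.4 CPM in the young mice and at 31.7, 33.6, 23.5 and 30.9 CPM in the old mice, with no overlap, and it fell by 0.76 (SE 0.17, adjusted p = 0.024). The orphan receptor gene Nr4a2 fell by 0.28 and the phosphatase gene Dusp1 fell by 0.34. Fos, Nr4a2 and Dusp1 were named after their values were seen. Arc, Egr2 and Sik1 were called in all 9 fits without 1 mouse, Fos and Egr1 in 6, Inhba in 5, Nr4a2 in 4 and Dusp1 in 3. The number of calls among the 22 was 4 without young replicate 1 and 5 without each of young replicate 3 and old replicates 1, 4 and 5. In the same samples Bdnf did not pass the test (-0.17, edgeR adjusted p = 0.17), like 14 of the 22 listed genes. Its value was close to the list median of -0.17.

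Of 10 pan-neuronal markers, Tubb3 (-0.22), Stmn2 (-0.27), Map2 (-0.14) and Elavl4 (-0.18) fell on the log2 scale and none rose (40% called by edgeR beside 11.0% of all genes). The call for Map2 held in 5 of the 9 fits without 1 mouse. The 10 summed to 6534, 6181, 6188, 6516 and 6275 CPM in young replicates 1 to 5 and to 6046, 6095, 5945 and 6169 CPM in old replicates 1, 3, 4 and 5, with Snap25 the most abundant and none at 0. All old sums lay below all young sums. Their part in the results for the activity-regulated genes was not tested.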

How the data were processed

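Brain RNA of 5 young and 4 old mice was analysed from the deposited raw counts per gene. The authors trimmed reads with Trimmomatic, aligned them with STAR to the Ensembl GRCm38 mouse genome and counted unique reads over exons with featureCounts. The authors also deposited TPM and normalized counts, a signal made by dividing counts by 1 size factor per library (DESeq2 is named in the submitters' processing notes). TPM was used for levels between genes and as an alternative scale. Every table held 1 column that matches no sample label, which was not used.

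Counts were fitted with edgeR 4.0.16 (R 4.3.3) after TMM scaling and filterByExpr (minimum count 10, minimum total 15), with the quasi-likelihood test (robust option), log2 fold changes given as old over young, Benjamini-Hochberg adjustment over 18492 genes and a threshold of 0.05. P-values measure the spread between these mice. Alternatives used DESeq2 1.42.0, limma 3.58.1 on log2(TPM + 1), log2(TPM + 0.1) and log2 normalized counts, other scalings and filters, a replicate block, and each mouse left out. The robust option and the centred TPM scale were chosen after seeing the data. The fit was tested on simulated data. At this depth the median SE of a log2 fold change was 0.085.

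The genes, the pathway lists and the marker lists were chosen with earlier results of these data known. Named were all 8 genes, up to 5 called genes of smallest p per pathway list, all kept ligands and receptors, the 3 nearest profiles of each called member, and of each marker list the most abundant and the called genes. Symbols came from GENCODE M21, which matched 49056 of 49315 gene identifiers. No 2 libraries of a group agreed within sampling noise (smallest chi-square per degree of freedom 4.05). Single genes of some lists are counted in their list but not reported here by name.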

Additional observations from a re-analysis of the deposited data

Results flagged for a closer look

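Among 72 group values examined (8 genes and 28 lists in each age), 5 had a single mouse far from the rest of its group, where chance gives about 1 in 20, or 3.6. None of the 8 neurotrophin genes was among them. Young replicate 4 stood apart in the mean log2 CPM of the reactive astrocyte markers (4.68, others 3.31 to 3.59), of the activated microglia markers (3.80, others 1.61 to 1.74) and of the pericyte and smooth muscle markers (3.60, others 3.84 to 3.93). Young replicate 2 stood apart in the olfactory bulb markers (3.10, others 1.42 to 1.80), and old replicate 1 in the striatum markers (6.08, others 5.83 to 5.87). The part of these differences in the results above was not tested, beyond the fits that left out each mouse.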

How the results depend on the processing

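Bdnf, Ntf3, Ngfr, Gfra1 and Vgf kept their direction and stayed uncalled in all 21 alternatives, but when 1 mouse was left out their values ranged from -0.22 to -0.098 (Bdnf), -0.42 to -0.093 (Ntf3), -0.28 to -0.065 (Ngfr), -0.11 to -0.065 (Gfra1) and -0.13 to -0.031 (Vgf). Of the 8 genes 1 was called in CPM, 2 without a filter on low counts, and 0 on log2(TPM + 1), log2(TPM + 0.1), centred log2(TPM + 1), with a log2 fold change over 0.58 or at an adjusted p of 0.01, and between 0 and 2 when 1 mouse was left out. Ntrk2 turned to -0.026 on log2(TPM + 1) and -0.026 on log2(TPM + 0.1), scales on which the median of all genes was -0.14 and -0.16, and it was 0.11 after centring (limma adjusted p = 0.076). It ranged from 0.12 to 0.16 when 1 mouse was left out, called in 5 of 9 fits. Sort1 turned to -0.11 on both TPM scales and ranged from 0.018 to 0.073 when 1 mouse was left out. Ntrk3 passed without a filter on low counts (-0.13, edgeR adjusted p = 0.017) and ranged from -0.15 to -0.10 when 1 mouse was left out. Pathway genes called numbered 27, with 5 on log2(TPM + 1), 24 on centred log2(TPM + 1) and from 16 to 24 without 1 mouse. Activity-regulated genes called numbered 8, with 3 on log2(TPM + 1), 7 on centred log2(TPM + 1) and from 4 to 8 without 1 mouse. Marker lists with counts more than 1.5 times apart between edgeR and DESeq2 were reactive astrocytes (3 and 6 called), blood (3 and 5), oligodendrocytes (3 and 5), homeostatic microglia (1 and 2) and striatum (2 and 1); cerebellar (2), astrocyte (2) and hippocampal (1) markers were called by DESeq2 only. The cause of the shifts was not tested.

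The replicate numbers shared by the ages did not pair the mice: deviations of same-numbered mice correlated between -0.12 and 0.17. With a replicate block, 9.89% of genes were called, Ntrk2 was 0.14 (edgeR adjusted p = 0.053) and Ntrk3 was -0.15 (adjusted p = 0.027). Ntf3 rests on 14 to 41 reads a library.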

Other observations

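Markers of other cells and regions also differed between the ages, as values beside the neurotrophin genes. All counts of called markers in this section stand beside 11.0% of all genes called by edgeR (6.09% higher and 4.89% lower in old). The summed level of 7 blood markers was 99.6 ± 12.2 CPM (SD, n = 5) in young and 256 ± 146 CPM (SD, n = 4) in old mice, led by the globin gene Hbb-bs, and Hba-a1, Hbb-bs and Alas2 passed an edgeR adjusted p of 0.05 in the fit of all mice. Without 1 mouse in turn, these calls held in 1, 1 and 4 of 9 fits. Of 7 endothelial markers Pecam1, Flt1, Cdh5 and Ly6c1 rose, 2 had negative fitted values, and Flt1 was the most abundant. The call for Flt1 held in 2 and that for Cdh5 in 6 of the 9 fits without 1 mouse. Of 8 activated microglia markers Axl, Gpnmb and Cd68 rose, and of 7 homeostatic microglia markers Tmem119 rose. All 8 and all 7 of these had positive fitted values. Of 7 markers of oligodendrocyte precursors Gpr17, Olig1 and Neu4 fell and Sox10 rose, with Olig1 the most abundant, and the call for Neu4 held in 2 of the 9 fits. Of 9 oligodendrocyte markers Mbp and Mobp rose (each called in 8 of the 9 fits) and Mog fell (in 4). Of 8 pericyte and smooth muscle markers Kcnj8 (called in 7 of the 9 fits) and Abcc9 rose, with Rgs5 the most abundant. Cdh19 rose and Egr2 fell among 6 markers of peripheral nerve, led by Pmp22. Col3a1 fell among 8 markers of meningeal fibroblasts, led by Igf2, but 6 of these 8 had positive fitted values (list median 0.11). The meningeal sum was 179 ± 12.2 CPM (SD, n = 5) in young and 196 ± 43.8 CPM (SD, n = 4) in old mice.

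Among neuronal classes, Slc17a6 fell of 8 excitatory markers (most abundant Camk2a), and Vip rose of 8 interneuron markers (most abundant Gad1). None was called by edgeR among 8 markers of the dentate gyrus and hippocampus (Zbtb20 the most abundant, 2 at an unadjusted p under 0.05, 1 by DESeq2), 8 of the olfactory bulb (Cdhr1, 0 and 0), 7 of the choroid plexus (Ttr, 1 and 0) and 2 kept of 6 of the pituitary (Tshb, 2 and 0). The olfactory bulb sum was 32.5 to 98.2 CPM in young and 34.5 to 189 CPM in old mice.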
